A study of Mus musculus with 19 samples.

Results

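The genes described here are the 4 class III POU transcription factors of the mouse, Pou3f1, Pou3f2, Pou3f3 and Pou3f4, and 2 entries beside Pou3f3: the long non-coding RNA 2610017I09Rik, which RefSeq lists as Pantr1 with the synonym Pou3f3os, and the unnamed assembled locus XLOC_000124. They were taken by name, 6 of the 38424 entries of a deposited expression table, and all 6 reached the level needed for testing, at least 1 FPKM (sequenced fragments divided by transcript length and by the library's mapped total) in at least 2 of 19 libraries. The study knocked down lncRNAs that lie head to head with a developmental gene and the coding gene EVX1 in differentiating mouse embryonic stem cells, using short hairpins (sh), and sequenced messenger RNA.

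In retinoic acid culture, the line 46c was grown for 4 days in N2B27, a serum-free medium, with 5 nM retinoic acid. This culture had 2 libraries with a hairpin against Pou3f3os, 2 against Nr2f1as, 1 against Sox21os and 2 with a control hairpin. In the other culture, serum medium without leukemia inhibitory factor (LIF), lines CJ7 and CJ9 of strain 129S4/SvJae were used. It had 2 shEvx1as libraries and 1 control (CJ7, day 4), 2 shEVX1 libraries and 1 control (CJ9, day 4), 2 shFendrr libraries and 2 controls (CJ9, day 5), and 1 shLhx1os library and 1 control (CJ9, day 6). Whether the numbered libraries of a group came from separate cultures or separate hairpins is not stated in the labels, and p-values then reflect only how far these libraries spread, which may be technical.

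Class III POU factors are encoded by genes without introns and bind octamer-like DNA with a POU-specific domain and a homeodomain, often beside a Sox protein. Pou3f1 (Oct6) is made in the epiblast and early neural cells, and later in Schwann cells. Pou3f2 (Brn2) and Pou3f3 (Brn1) act in neural progenitors and cortical neurons, where they can stand in for each other, and Pou3f4 (Brn4) is known for its role in the inner ear. Head-to-head lncRNAs such as Pou3f3os start close to their coding neighbour and are read from the other strand.

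Each library summed to 559050 to 655315 FPKM and had 12255 to 12825 entries at 1 FPKM or more. Neural progenitor markers (11 genes, none at 0 in every retinoic acid library) summed to 490 to 623 FPKM in the retinoic acid libraries and to 56.9 to 180 FPKM in the LIF-withdrawal libraries. The retinoic acid controls stood apart from each other: Pou5f1, the Oct4 gene of pluripotent cells, was at 43.5 FPKM in control 1 and 282 FPKM in control 2. It was at 47.2 and 44.6 FPKM in the shPou3f3os libraries, 92.1 and 194 FPKM in the shNr2f1as libraries and 180 FPKM in the shSox21os library. Members' values in the retinoic acid culture are therefore given for each library, and the part of remaining pluripotent cells in them was not tested.

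Pou3f2, Pou3f3 and Pou3f4 varied together in the retinoic acid libraries, as shown further on, so the sequence just before the start of each gene is printed here. The windows are the 250 bases before the transcript start, 5′ to 3′ on the gene's strand, from RefSeq on GRCm38.p6. They are chr4:22488367-22488616 (minus strand) for Pou3f2, chr1:42695518-42695767 (plus strand) for Pou3f3 and chrX:110814129-110814378 (plus strand) for Pou3f4. Capitals mark CCAAT and its reverse complement ATTGG.
Pou3f2: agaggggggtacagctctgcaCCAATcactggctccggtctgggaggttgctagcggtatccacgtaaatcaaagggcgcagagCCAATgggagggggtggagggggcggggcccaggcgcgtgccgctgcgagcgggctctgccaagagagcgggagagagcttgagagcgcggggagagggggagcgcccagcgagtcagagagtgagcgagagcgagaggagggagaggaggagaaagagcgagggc
Pou3f3: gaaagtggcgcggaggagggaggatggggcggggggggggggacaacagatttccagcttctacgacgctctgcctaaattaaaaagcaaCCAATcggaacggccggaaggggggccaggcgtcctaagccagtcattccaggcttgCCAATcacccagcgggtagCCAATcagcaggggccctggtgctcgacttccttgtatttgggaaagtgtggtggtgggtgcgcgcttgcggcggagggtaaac
Pou3f4: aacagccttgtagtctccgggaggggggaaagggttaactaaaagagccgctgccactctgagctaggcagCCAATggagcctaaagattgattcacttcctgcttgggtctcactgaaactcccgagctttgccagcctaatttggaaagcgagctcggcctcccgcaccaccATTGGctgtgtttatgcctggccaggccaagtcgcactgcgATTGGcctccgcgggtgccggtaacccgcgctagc

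The Pou3f2 window held CCAAT 2 times and the windows of Pou3f3 and Pou3f4 3 times each, counting both strands. Of 32851 promoter windows of the same length, 33.8% held it at least once, 10.1% at least 2 times and 2.79% at least 3 times. The first base of the motif lay at -229 and -166 in Pou3f2, at -160, -103 and -84 in Pou3f3, and at -179, -76 and -35 in Pou3f4, counted from the transcript start. Other motifs were searched on both strands and none was found in the 3 windows: the octamer ATGCAAAT (1.60% of all windows), 2 direct copies of the retinoic acid receptor half-site AGGTCA set 5 or 2 bases apart (0.00913% each), and TATAAA (12.4%). Each motif was counted on its own, so overlapping matches would count for each. GC content was 66.8% for Pou3f2, 60.8% for Pou3f3 and 58% for Pou3f4, against a median of 52.4% over all windows. Pou3f1 and the lncRNA had no entry in the promoter table.

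The layout of the Pou3f3 locus bears on what each entry measures. In the deposited table, on positions that follow mm9, 2610017I09Rik spans chr1:42705045-42751670, XLOC_000124 spans chr1:42751588-42753888 and Pou3f3 spans chr1:42753991-42757054. XLOC_000124 therefore shares 83 bp with the lncRNA entry and ends 102 bp short of the Pou3f3 entry. The lncRNA entry is 46626 bp long, the same length as Pantr1 in RefSeq, and Pou3f3 begins 2321 bp past its end. On GRCm38 the Pou3f3 start codon lies the same 2321 bp past the end of Pantr1, while the Pou3f3 transcript starts only 943 bp past it.

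**Figure D1:**
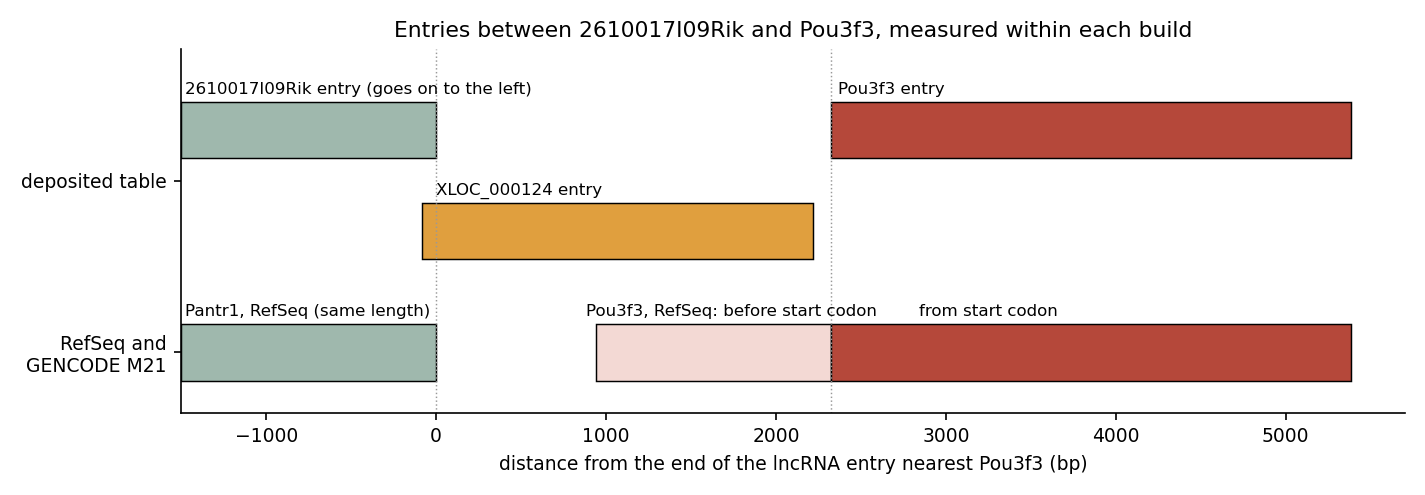
The lncRNA, XLOC_000124 and Pou3f3 entries of the deposited table (upper rows) and the RefSeq genes with the GENCODE M21 start codon (lower row), by distance in bp from the lncRNA's end nearest Pou3f3, each measured within its own build. XLOC_000124 covers the stretch in which RefSeq places the start of Pou3f3 and 1276 of its 1378 bases before the start codon.

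By these distances, the Pou3f3 entry of the table begins at the start codon and is 3064 bp long, against 4443 bp for the RefSeq gene. Of the 1378 bases of Pou3f3 before its start codon, 1276 fall within the span of XLOC_000124. The library kit keeps strand, but the sources used here do not give whether counting used it. Reads within XLOC_000124 can therefore not be assigned with confidence to it or to the untranslated start of Pou3f3. In the 83 bp that it shares with the lncRNA entry, they cannot be told from reads of the lncRNA either. The Pou3f4 entry holds 1086 bp, the length from start to stop codon, against 4730 bp for the RefSeq gene, while the Pou3f1 and Pou3f2 entries, 3011 and 6272 bp, have nearly the RefSeq lengths of 3010 and 6272 bp.

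Within 200 kb of Pou3f3 the table had 10 entries, and 6 of them stayed below 1 FPKM in every retinoic acid library, the highest being AK011913 at 0.776 FPKM. XLOC_000123, which spans Pou3f3 from end to end, reached at most 0.0377 FPKM. Mrps9, a mitochondrial ribosomal protein gene and the only other entry of the window above 1 FPKM, was at 61.3 to 88.0 FPKM. No other entry overlapped Pou3f1, Pou3f2 or Pou3f4.

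The first comparison asked how the members stood in cells with a hairpin against Pou3f3os. The lncRNA itself, 2610017I09Rik, was at 2.40 and 4.13 FPKM in the libraries labelled shPou3f3os, against 5.20 and 1.98 FPKM in the controls. The groups overlapped, and the controls differed 2.63-fold between themselves. Its difference on the log2(FPKM + 1) scale was -0.043 (SE 0.39, limma adjusted p = 0.976), with a 95% interval of -0.91 to 0.83. No fall of the targeted lncRNA was detectable in these values, and the interval holds changes of either sign. The interval may be too narrow, since the spread is pooled with LIF-withdrawal groups in which the lncRNA is near 0. Without control 1 the difference was 0.49, and without control 2 it was -0.57.

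Pou3f3, the coding neighbour, was at 3.57 and 4.18 FPKM in the libraries labelled shPou3f3os, against 5.86 and 5.38 FPKM in the controls. Both knockdown libraries lay below both controls, which held for 21.6% of all entries tested. The difference was -0.44 on the log2(FPKM + 1) scale (SE 0.20, limma adjusted p = 0.230), so Pou3f3 did not pass the test. XLOC_000124 was at 3.72 and 3.86 FPKM in the libraries labelled shPou3f3os, against 6.76 and 5.68 FPKM in the controls. It too lay below both controls, with a difference of -0.59 (SE 0.28, limma adjusted p = 0.255).

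The other class III factors did not separate. Pou3f1 was at 17.9 and 18.9 FPKM in the libraries labelled shPou3f3os, between the controls' 11.7 and 24.3 FPKM, with a difference of 0.11 (limma adjusted p = 0.912). Pou3f2 was at 2.27 and 3.19 FPKM in the libraries labelled shPou3f3os, against 4.35 and 2.48 FPKM in the controls (difference -0.22, limma adjusted p = 0.582). Pou3f4 was at 1.91 and 2.72 FPKM in the libraries labelled shPou3f3os, against 2.87 and 2.55 FPKM in the controls (difference -0.17, limma adjusted p = 0.756). In all, 0 of the 6 members passed limma's adjusted threshold of 0.05, against 2.32% of all entries. At an unadjusted p under 0.05, 1 member (Pou3f3) and 3109 of the 14942 entries passed.

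**Figure D2:**
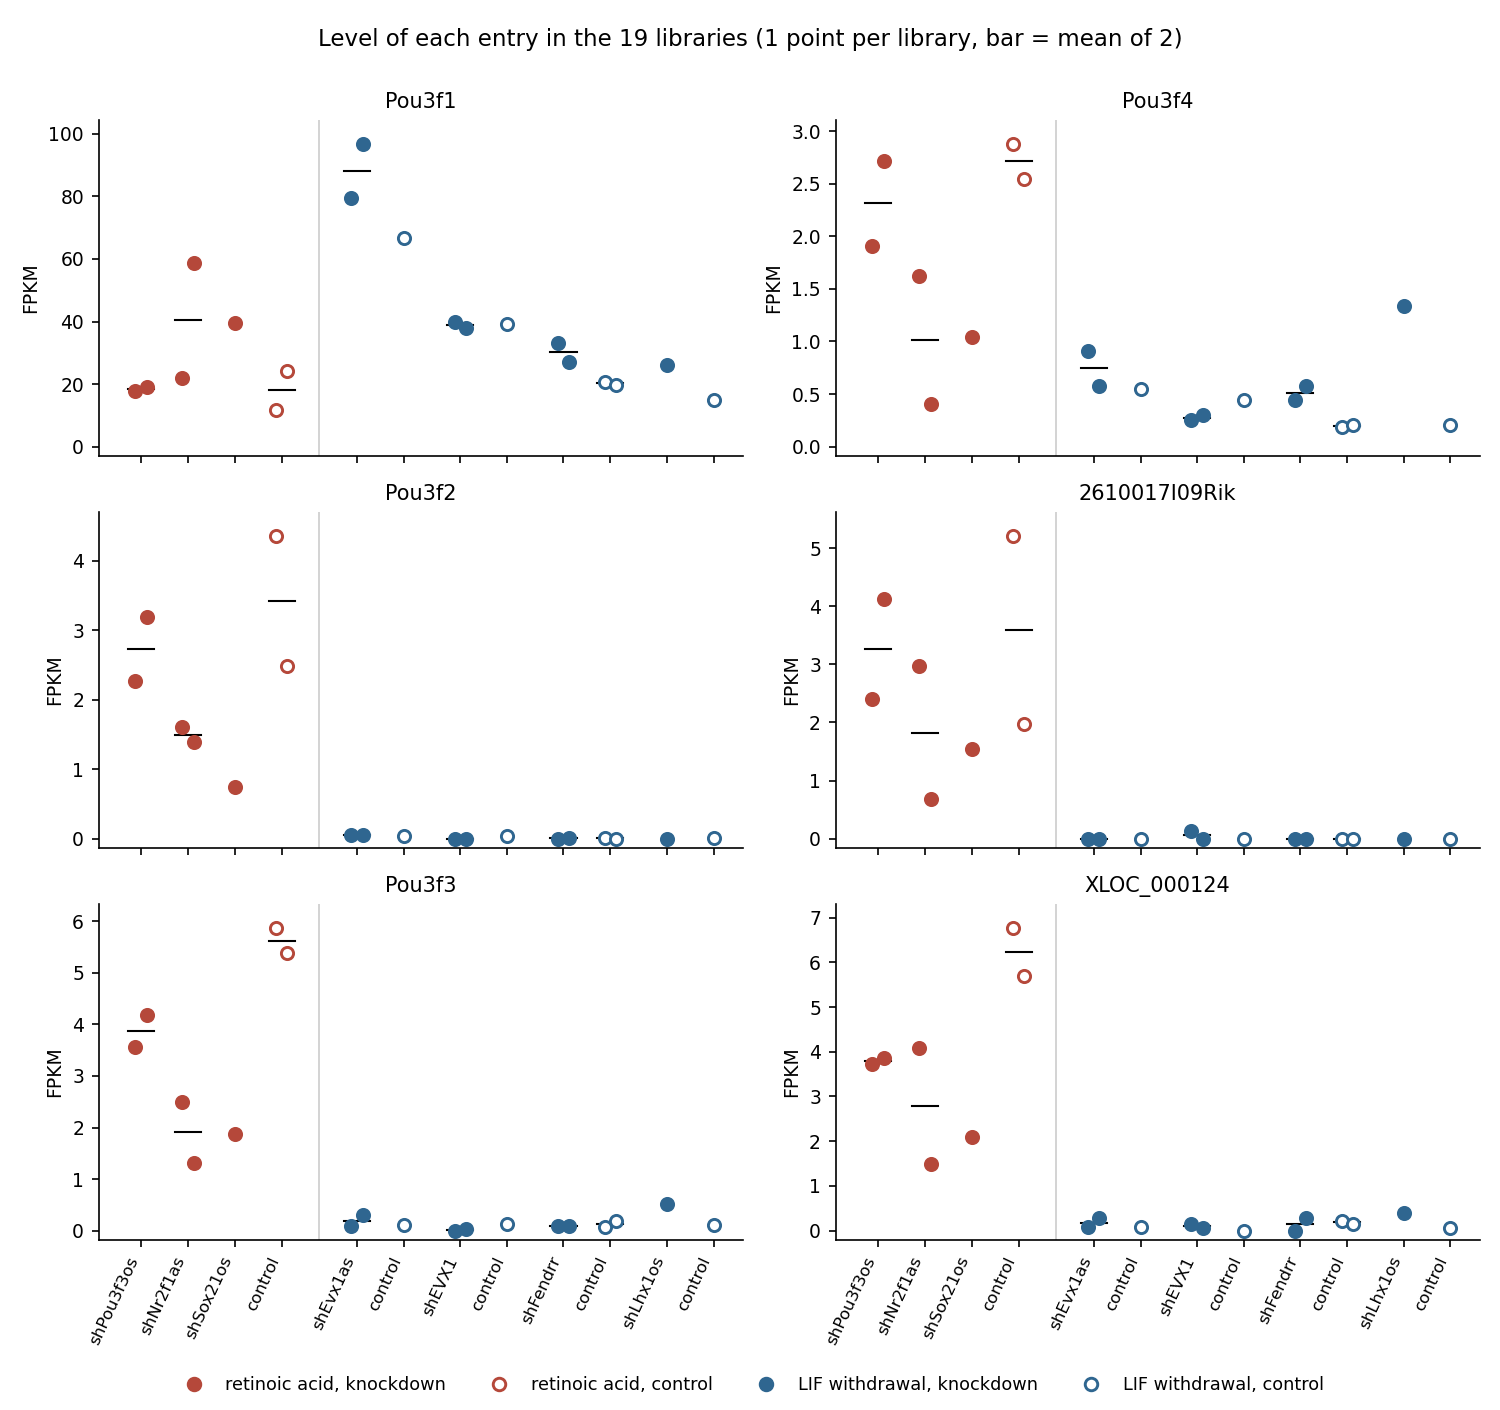
FPKM of each entry in the 19 libraries, with the retinoic acid groups left of the grey line and the LIF-withdrawal groups right of it; each point is 1 library and each bar the mean of 2. Pou3f1 lies between 11.7 and 96.6 FPKM in both cultures, while the lncRNA, Pou3f2, Pou3f3 and XLOC_000124 stay under 1 FPKM in every LIF-withdrawal library.

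The hairpin against Nr2f1as gave the 1 knockdown call among the members. Pou3f3 fell to 2.50 and 1.31 FPKM in the shNr2f1as libraries, against 5.86 and 5.38 FPKM in the controls, or 1.91 ± 0.841 FPKM against 5.62 ± 0.340 FPKM (SD, n = 2 each). The difference was -1.22 on the log2(FPKM + 1) scale (SE 0.20, 95% interval -1.65 to -0.78, limma adjusted p = 0.0352). The SE pools spread over both cultures, and in the LIF-withdrawal groups Pou3f3 is near 0, so the SE and p may be too small. Across all entries, 0.676% passed in either direction and 0.254% passed as lower. The call was lost without control 2 (adjusted p = 0.0641), without shNr2f1as replicate 2 (0.0798) and with a pseudocount of 0.1 (0.122). It was also lost when every entry above 0 was tested (0.0522) and when the retinoic acid libraries were modelled alone (0.181).

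The other entries of the class differed in the same direction as Pou3f3, apart from Pou3f1, without passing the test. Pou3f2 was at 1.60 and 1.39 FPKM in the shNr2f1as libraries, against 4.35 and 2.48 FPKM in the controls, a difference of -0.79 (limma adjusted p = 0.0866). Pou3f4 was at 1.62 and 0.407 FPKM in the shNr2f1as libraries, against 2.87 and 2.55 FPKM in the controls, a difference of -0.95 (limma adjusted p = 0.0955). XLOC_000124 was at 4.09 and 1.50 FPKM in the shNr2f1as libraries, against 6.76 and 5.68 FPKM in the controls, a difference of -1.01 (limma adjusted p = 0.0988). For these 3 entries, as for Pou3f3, the groups did not overlap, which held in this direction for 20.8% of all entries.

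The lncRNA and Pou3f1 overlapped between the same groups. 2610017I09Rik was at 2.97 and 0.679 FPKM in the shNr2f1as libraries, against 5.20 and 1.98 FPKM in the controls (difference -0.74, limma adjusted p = 0.356). Pou3f1 was at 21.9 and 58.8 FPKM in the shNr2f1as libraries, against 11.7 and 24.3 FPKM in the controls (difference 1.04, limma adjusted p = 0.188). In shNr2f1as replicate 2, Pou3f1 was at its highest and Pou3f3, Pou3f4, XLOC_000124 and the lncRNA were at their lowest among the 7 retinoic acid libraries. Without shNr2f1as replicate 1, Pou3f4 (-1.40, limma adjusted p = 0.0255) and XLOC_000124 (-1.53, limma adjusted p = 0.0192) also passed, and without control 2 Pou3f2 passed (-1.10, limma adjusted p = 0.0491).

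The single shSox21os library placed the members much as the shNr2f1as libraries did. Pou3f2 was at 0.747 FPKM in the shSox21os library, against 4.35 and 2.48 FPKM in the controls, its lowest level among the retinoic acid libraries. Pou3f3 was at 1.88 FPKM in the shSox21os library, against 5.86 and 5.38 FPKM in the controls. Pou3f4 was at 1.05 FPKM, XLOC_000124 at 2.08 FPKM and the lncRNA at 1.54 FPKM in the shSox21os library, each below both controls. Pou3f1, at 39.4 FPKM in the shSox21os library, was above both controls.

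With 1 library, limma takes its spread from the other groups. None of the 6 members passed, against 0.0669% of all entries, while 5 members and 1706 of all 14942 entries had an unadjusted p under 0.05. The differences were -1.31 for Pou3f2 (limma adjusted p = 0.115), -1.20 for Pou3f3 (0.136) and 1.17 for Pou3f1 (0.381). Lying below both controls held for 30.7% of all entries and lying above both for 37.2%. Pou3f2 passed without control 2, with a difference of -1.62 (limma adjusted p = 0.0220), and when every entry above 0 was tested (0.0495). The comparisons with the retinoic acid controls share those 2 libraries, so their differences are not independent of each other.

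**Figure D3:**
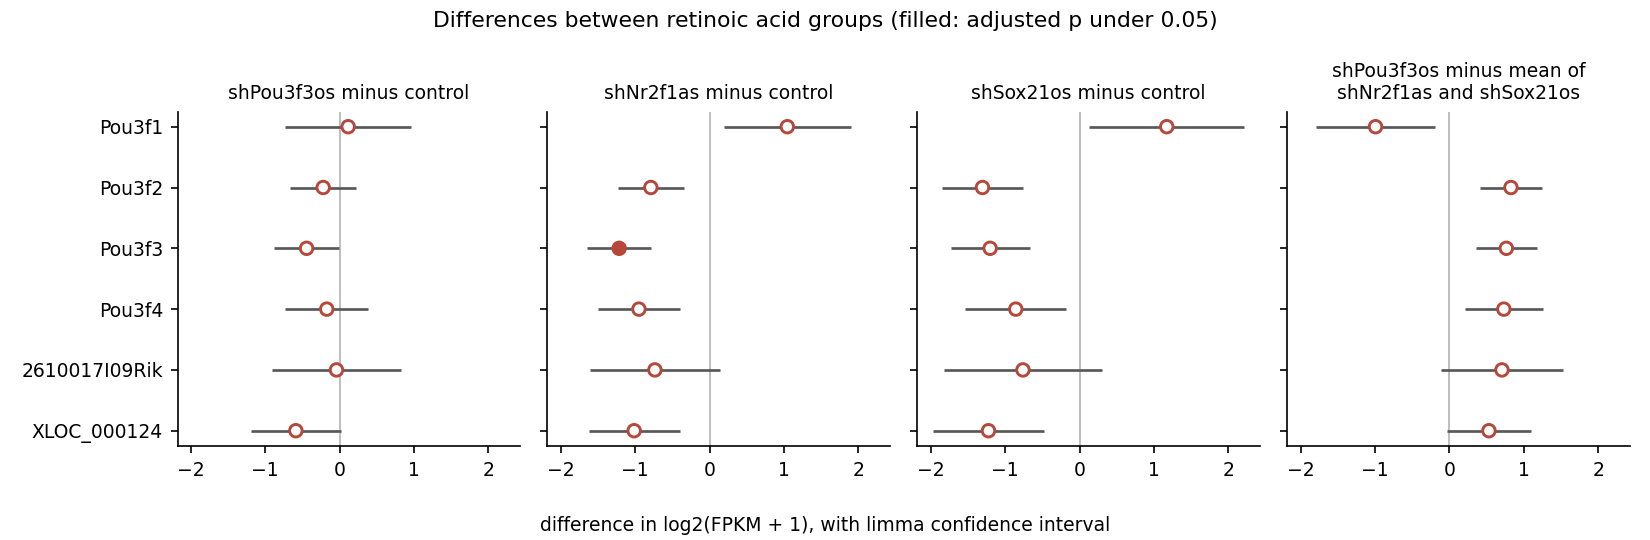
Difference in log2(FPKM + 1) of each member between retinoic acid groups, with limma's 95% interval; the filled point passed an adjusted p of 0.05. Pou3f3 in shNr2f1as against control, at -1.22, is the 1 filled point, and the intervals of shPou3f3os against control lie on both sides of 0 except that of Pou3f3.

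Set directly against the other knockdown libraries of the same culture, the libraries labelled shPou3f3os had higher mean levels of 5 members and a lower mean level of Pou3f1, and no difference passed the test. Pou3f3 was at 3.87 ± 0.432 FPKM in the libraries labelled shPou3f3os (SD, n = 2), against 1.90 ± 0.595 FPKM in the 3 shNr2f1as and shSox21os libraries. The log2 differences were 0.76 for Pou3f3, 0.83 for Pou3f2 and 0.73 for Pou3f4, and in each the groups did not overlap, which held in this direction for 17.6% of all entries. Pou3f1, at 18.4 ± 0.730 FPKM in the libraries labelled shPou3f3os (SD, n = 2) and 40.0 ± 18.5 FPKM in the other knockdown libraries (SD, n = 3), differed by -0.99 and did not overlap either, as held in that direction for 14.1% of all entries. None of the 6 passed (limma adjusted p = 0.474 for Pou3f2 and Pou3f3, 0.551 for Pou3f4 and 0.599 for Pou3f1), against 0.00669% of all entries. At an unadjusted p under 0.05, 4 members and 1134 of all entries passed.

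Across the 7 retinoic acid libraries, Pou3f1 ran against every other member. Pearson's r of Pou3f1 on the log2(FPKM + 1) scale was -0.82 with Pou3f2, -0.86 with Pou3f3, -0.91 with Pou3f4, -0.89 with XLOC_000124 and -0.94 with the lncRNA. Spearman's rho lay between -0.64 and -0.89. Without the 2 libraries farthest from the median of Pou3f1, r lay between -0.60 and -0.85. The 7 points share a cell line and a culture and come from 4 groups, so these values are a description.

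Among the other members, Pou3f3 had r = 0.96 and rho = 0.96 with Pou3f4, r = 0.94 and rho = 0.89 with XLOC_000124, and r = 0.86 and rho = 0.93 with Pou3f2. With the lncRNA both were lower, with r = 0.77 and rho = 0.75, and r was 0.27 without the 2 libraries farthest from the median of Pou3f3, so that relation rests on those libraries. The ratio of XLOC_000124 to Pou3f3 stayed between 0.923 and 1.63, and the ratio of the lncRNA to Pou3f3 between 0.368 and 1.19. The lowest lncRNA ratio was that of control 2 and the highest that of shNr2f1as replicate 1.

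**Figure D4:**
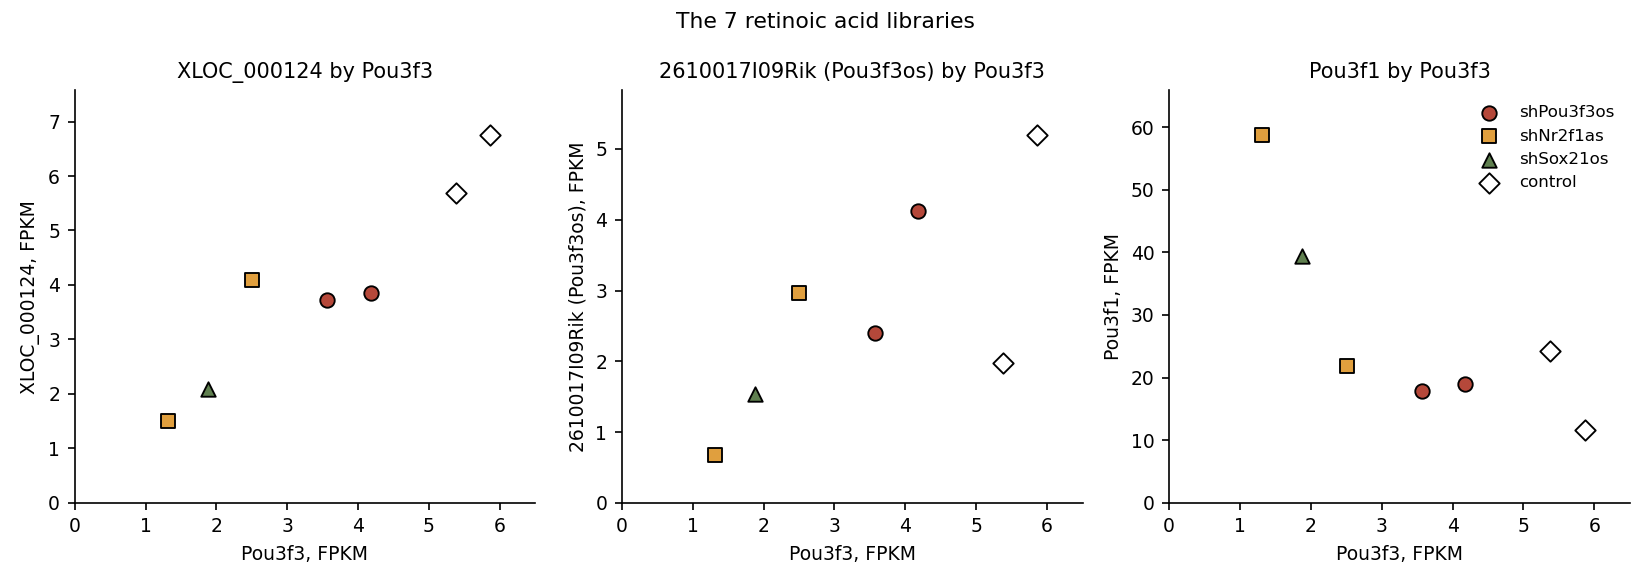
FPKM of XLOC_000124, of the lncRNA 2610017I09Rik and of Pou3f1 (vertical axes) by FPKM of Pou3f3 (horizontal axis) in the 7 retinoic acid libraries. XLOC_000124 has r = 0.94 with Pou3f3 on the log2 scale, the lncRNA r = 0.77, and Pou3f1 is highest, at 58.8 FPKM, where Pou3f3 is lowest.

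Markers of cell state varied along the same line in part. Otx2, an epiblast and forebrain factor, and Fgf5, a primed epiblast gene, had r = 0.94 and 0.95 with Pou3f1. Pax6, a neural progenitor factor, had r = -0.88 with Pou3f1 and 0.88 to 0.91 with the other 5 members. Sox1, another neural progenitor factor, did not follow them as closely, with r = -0.50 with Pou3f1 and 0.17 to 0.36 with the others, and with Pou3f3 r was -0.45 without the 2 farthest libraries. Pou5f1 had r = 0.75 with Pou3f1 and -0.40 to -0.78 with the others, and Nanog, a pluripotency factor, 0.69 and -0.33 to -0.68. With Pou3f3, r without the 2 farthest libraries was 0.12 for Pou5f1 and 0.039 for Nanog. The pluripotency markers (9 genes, none at 0 in every retinoic acid library) summed to 155 and 169 FPKM in the libraries labelled shPou3f3os, 357 and 570 FPKM in the shNr2f1as libraries, 528 FPKM in the shSox21os library, and 139 and 737 FPKM in the controls. Control 2 had the highest sum and control 1 the lowest, and their Pou3f3 levels were 5.38 and 5.86 FPKM. Summed levels of the other marker lists in the retinoic acid libraries were 188 to 338 FPKM for primed epiblast (8 genes with Pou3f1 among them, 176 to 279 FPKM without it), 115 to 214 FPKM for neurons (10 genes), 3.08 to 12.4 FPKM for streak and mesoderm (7 genes), 4.52 to 9.13 FPKM for endoderm (5 genes) and 9.56 to 40.4 FPKM for Schwann cells and neural crest (6 genes). In shPou3f3os against control, 1 gene of all these marker lists passed, the neuronal Stmn2, at 87.4 and 76.5 FPKM in the libraries labelled shPou3f3os, against 42.1 and 34.3 FPKM in the controls (limma adjusted p = 0.0477). Stmn2 was also above both controls in the shNr2f1as libraries (97.2 and 140 FPKM) and the shSox21os library (73.4 FPKM). In these bulk libraries, fewer cells of a type and less RNA per cell cannot be told apart, and the part of the markers' cells in the members' differences was not tested.

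Among 8031 or 8032 named entries with a mean of at least 5 FPKM, those with the highest r over these 7 libraries were as follows. For Pou3f1 they were Nr4a1, an immediate-early nuclear receptor (r = 0.994), Sec16a and St6gal1. For Pou3f2 they were Hdac2, a histone deacetylase (r = 0.977), Kctd17 and Vapb, and for Pou3f3 Zc3h7b (r = 0.981) and Efna2, an ephrin ligand. For the lncRNA they were Snx19 (r = 0.988), the Wnt receptor Fzd9 and Dexi, and for XLOC_000124 the Wnt receptor Fzd8 (r = 0.988), the retinoid X receptor Rxra and Prim2. With 7 libraries and this many entries searched, high values of r arise easily, and no p is given.

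For the members apart from Pou3f1, the controls of the 2 cultures differed more than knockdown libraries did from their controls. Pou3f3 was at 5.86 and 5.38 FPKM in the retinoic acid controls, against 0.0723 to 0.191 FPKM (median 0.116) in the 5 LIF-withdrawal controls, a difference of 2.57 on the log2(FPKM + 1) scale (SE 0.17, limma adjusted p = 6.1e-07). Pou3f2 was at 4.35 and 2.48 FPKM in the retinoic acid controls, against 0 to 0.0355 FPKM in the LIF-withdrawal controls (limma adjusted p = 3.1e-06). Pou3f4 was at 2.87 and 2.55 FPKM in the retinoic acid controls, against 0.190 to 0.544 FPKM in the LIF-withdrawal controls, a difference of 1.47 (SE 0.21, limma adjusted p = 0.00017). The groups did not overlap for any of these factors, which held in this direction for 27.8% of all entries.

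Both entries beside Pou3f3 followed it. The lncRNA was at 5.20 and 1.98 FPKM in the retinoic acid controls, while all 5 LIF-withdrawal controls list it at 0 (limma adjusted p = 0.0003). XLOC_000124 was at 6.76 and 5.68 FPKM in the retinoic acid controls, against 0 to 0.225 FPKM in the LIF-withdrawal controls (limma adjusted p = 4.0e-06). With these, 5 of the 6 members passed as higher, against 30.3% of all entries (59.8% passed in either direction). These 5 met the level needed for testing through retinoic acid libraries, where they are high. The filter therefore favoured a higher call for them, and the count is only a description. Culture, cell line and experiment differ together between the groups and cannot be told apart. All retinoic acid libraries are from day 4. The LIF-withdrawal controls of day 4 had Pou3f3 at 0.116 FPKM (Evx1as control) and 0.121 FPKM (EVX1 control).

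Pou3f1 was the exception. It was at 11.7 and 24.3 FPKM in the retinoic acid controls, against 14.9 to 66.7 FPKM (median 20.7) in the LIF-withdrawal controls, and the groups overlapped. The overlap came from the LIF-withdrawal controls of later days. Those of day 4, at 66.7 FPKM (Evx1as control) and 39.2 FPKM (EVX1 control), lay above both retinoic acid controls. The difference of -0.79 (SE 0.33, limma adjusted p = 0.0571) did not pass. It passed without retinoic acid control 2 (-1.28, limma adjusted p = 0.0161) and without the Lhx1os control (-1.11, limma adjusted p = 0.0161), as well as after rescaling the libraries to the same total (-0.82, limma adjusted p = 0.0480) or by the median ratio (-0.84, limma adjusted p = 0.0478).

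The make-up of the class by level was therefore different in the cultures. Since FPKM is set per length, the 4 factors can be summed, with the limit that the Pou3f3 and Pou3f4 entries leave out untranslated sequence. Pou3f1 made up 69.8 and 65.2% of the sum in the libraries labelled shPou3f3os, 79.2 and 95.0% in the shNr2f1as libraries, 91.5% in the shSox21os library, and 47.2 and 70.0% in the retinoic acid controls. In the 12 LIF-withdrawal libraries it made up 93.4 to 99.4%, with a median of 98.6%. The sum of Pou3f2, Pou3f3 and Pou3f4 was 13.1 and 10.4 FPKM in the retinoic acid controls, against at most 1.84 FPKM in any LIF-withdrawal library.

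**Figure D5:**
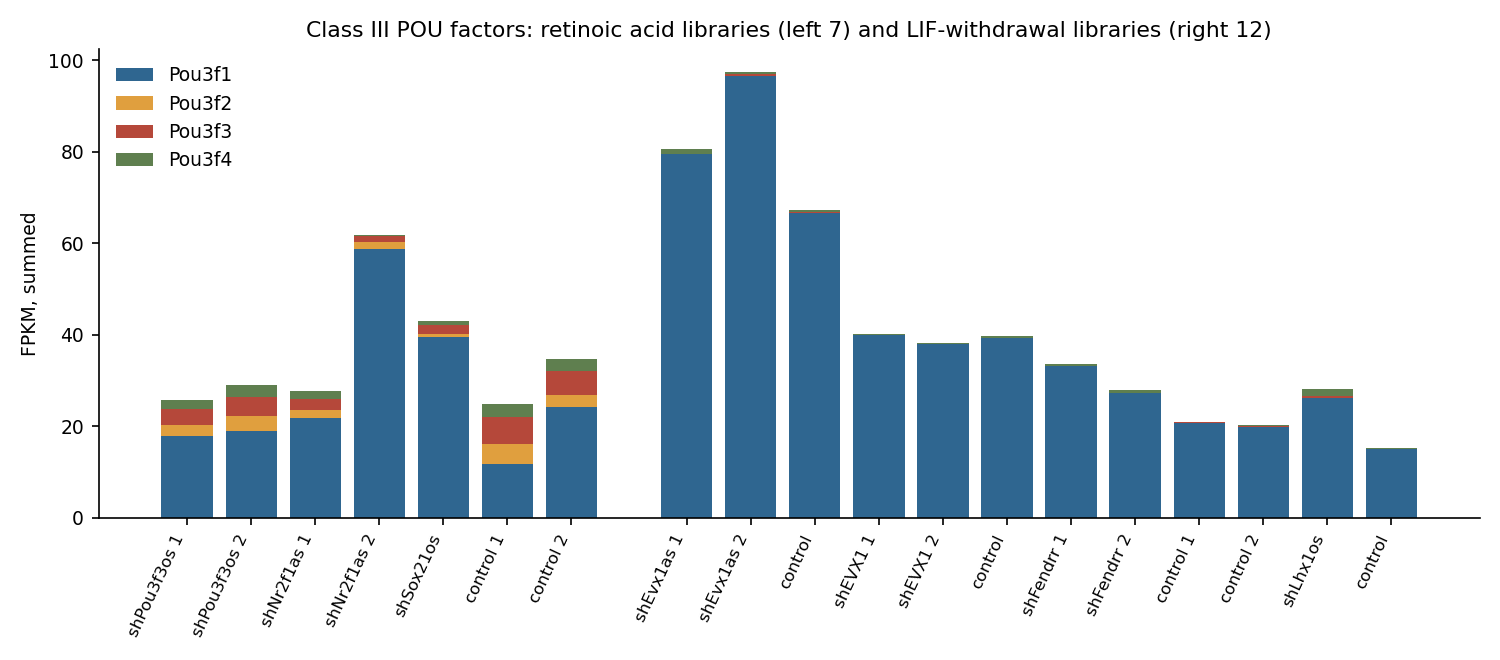
Summed FPKM of the 4 class III POU factors in each library, stacked by gene, with the 7 retinoic acid libraries on the left and the 12 LIF-withdrawal libraries on the right. Pou3f1 makes up 47.2 to 95.0% of the stack in retinoic acid culture and 93.4 to 99.4% after LIF withdrawal.

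Within the LIF-withdrawal culture, Pou3f1 was the 1 member well above 1 FPKM. At day 4 in CJ7 it was at 79.5 and 96.6 FPKM in the shEvx1as libraries, against 66.7 FPKM in the control (difference 0.39, SE 0.47, limma adjusted p = 1), and 44.6% of all entries lay above that control in both libraries. At day 4 in CJ9 it was at 40.0 and 37.9 FPKM in the shEVX1 libraries, against 39.2 FPKM in the control (difference -0.0097, SE 0.47, limma adjusted p = 1). At day 5 in CJ9 it was at 33.1 and 27.2 FPKM in the shFendrr libraries, against 20.7 and 19.8 FPKM in the controls. There both knockdown libraries lay above both controls, as did 14.4% of all entries, and the difference of 0.54 (SE 0.39) did not pass (limma adjusted p = 0.803). At day 6 in CJ9 it was at 26.2 FPKM in the shLhx1os library, against 14.9 FPKM in its control, with 1 library each and no test.

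None of these differences passed, where 0.00669% of all entries passed for shEvx1as and for shEVX1 and 0.147% for shFendrr. At an unadjusted p under 0.05, 654, 496 and 1051 of all entries passed for shEvx1as, shEVX1 and shFendrr, and Pou3f1 did not. Control levels of Pou3f1 ran from 66.7 FPKM in CJ7 at day 4 through 39.2, 20.7 and 19.8 FPKM in CJ9 at days 4 and 5 to 14.9 FPKM at day 6. Between the 2 controls of day 4, cell line and experiment differ together. Among the CJ9 controls, day and experiment differ together. In neither case can the 2 be told apart.

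The other members were close to 0 in this culture. Pou3f4 reached 1 FPKM in a single library, shLhx1os, at 1.34 FPKM against 0.205 FPKM in its control. The same library had the highest LIF-withdrawal level of Pou3f3 (0.508 FPKM) and of XLOC_000124 (0.398 FPKM). The lncRNA was listed at 0 in 11 of the 12 libraries and at 0.135 FPKM in shEVX1 replicate 1, and Pou3f2 stayed at or below 0.0547 FPKM in all 12.

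Next, 4 lists of genes related to the class were read in the comparison of shPou3f3os with control: other POU factors, Sox partners, genes reported in mouse as activated by Pou3f1 or Pou3f2 in neural cells, and BMP and Wnt targets reported as repressed by Pou3f1. None of their 7, 8, 12 and 10 tested members passed, against 2.32% of all entries. Median differences were -0.32, 0.030, -0.012 and 0.0016, beside 0.040 over all entries. Genes with the smallest p in each list are given next.

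Of the other POU factors, Pou5f1 differed by -1.26 (SE 0.62, limma adjusted p = 0.279), which was -2.59 without control 1, with an adjusted p of 0.00235, and 0.073 without control 2. Pou4f1, a sensory neuron factor, was at 1.70 and 1.65 FPKM in the libraries labelled shPou3f3os, against 2.00 and 2.78 FPKM in the controls (limma adjusted p = 0.301). Pou2f2, the Oct2 gene of B cells, was at 2.07 and 1.48 FPKM in the libraries labelled shPou3f3os, against 2.23 and 4.54 FPKM in the controls (limma adjusted p = 0.336). Of the Sox partners, Sox3 and Sox1, factors of neural progenitors, had differences of 0.28 (limma adjusted p = 0.288) and 0.21 (0.724). Sox10, a neural crest factor that stayed below 1 FPKM in these libraries, had -0.35 (0.495).

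Of the genes reported as activated, Fabp7, a fatty acid binding protein of radial glia, was at 1.26 and 2.56 FPKM in the libraries labelled shPou3f3os, against 0.156 and 0 FPKM in the controls. Its limma adjusted p was 0.0528, just short of the threshold, and 0.0460 after rescaling to the same total. Fabp7 was also above both controls in the shNr2f1as libraries (1.86 and 0.652 FPKM) and the shSox21os library (2.18 FPKM), so the rise was not particular to shPou3f3os. Tubb3, a neuronal tubulin, was at 29.3 and 32.0 FPKM in the libraries labelled shPou3f3os, against 48.6 and 49.7 FPKM in the controls (limma adjusted p = 0.167). The groups did not overlap for either gene. Lying above both controls, as Fabp7 did, held for 31.5% of all entries.

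Of the BMP and Wnt targets, Axin2, a feedback inhibitor of Wnt signalling, was at 25.8 and 23.2 FPKM in the libraries labelled shPou3f3os, against 18.0 and 18.4 FPKM in the controls (limma adjusted p = 0.278). Msx2, a BMP-induced homeobox factor, had a difference of -0.40 (limma adjusted p = 0.334), and Sp5, a Wnt target, -0.77 (0.418).

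Between the control groups of the cultures the lists separated, as did most of the table. Of 8 Sox partners tested, 7 passed as higher in the retinoic acid controls and 1, Sox10, as lower, with a median difference of 1.83. Of the 12 genes reported as activated, 10 passed as higher, with a median of 2.21, Pax6 (5.94) and Zic1 (4.67), both transcription factors of the neural plate, among them. Otx2 and Fabp7 did not pass. Of the 10 BMP and Wnt targets, 6 passed as lower and none as higher, with a median of -2.13, including T, the primitive streak factor Brachyury (-5.67), and Sp5 (-4.76). The median over all entries was 0.00097, and 30.3% of all entries passed as higher and 29.5% as lower. Of 7 other POU factors, 3 passed as higher and 3 as lower, Pou5f1 among the lower (-1.73, limma adjusted p = 0.0154).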

How the data were processed

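The values are FPKM, as deposited by the authors for 19 libraries. Per the labels' protocols, messenger RNA was purified on Dynabeads and libraries were made with a stranded kit. The submitters' processing notes name CASAVA, TopHat2 2.0.11 and the builds mm9 and mm10. The sources used here do not give the quantifier, the annotation or the use of strand. Positions in the table were read as mm9. Of 18867 matched coding genes, only 5.14% had their start or their end within 1000 bp of the GRCm38.p6 position, and 116 entries lie on random chromosomes. Starts were changed to 1-based counting.

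Values were analysed as log2(FPKM + 1), which understates changes of low genes. The 14942 entries that reached 1 FPKM in 2 or more libraries were fitted with limma 3.58.1 in R 4.3.3, with 1 mean for each of 12 groups, a variance prior with a trend, and 7 residual degrees of freedom. The 5 groups of 1 library are assumed to vary like the 7 groups of 2. The groups of 2 include LIF-withdrawal groups, where the members other than Pou3f1 lie near 0 and have little room to vary. For these members the pooled spread may understate that among retinoic acid libraries, which would make SE, intervals and p-values there too small. Tests are two-sided and Benjamini-Hochberg adjusted over all entries, with a threshold of 0.05. Counts were not used here, so intervals for sampling error were not computed. Steps between low values gave depths of 0.826 to 1.13 relative to 1 library, from 19 to 60 entries; absolute depth is unknown. On simulated data in the layout of shPou3f3os against control, 65.9% of 200 entries changed 2-fold and 95.4% of those changed 4-fold were recovered. These changes were set on the log2(FPKM + 1) scale, where the same fold change in FPKM of a low entry is smaller. Noise was drawn independently for each entry, unlike controls that differ in many genes together. Recovery at the members' levels was not computed and may be lower.

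Members, lists and tests were chosen with earlier results of these data known. Named genes are the 6 members, with a log2 change only where a library of the comparison reached 1 FPKM; entries within 200 kb of Pou3f3 or overlapping another factor; the 3 entries most like a member by Pearson's r; and, of each list, genes that passed or else the 3 with the smallest p. Some genes this rule names are not reported here. Promoters were matched for 3 of 5 annotated members. Markers of other cell types (neuron, streak and mesoderm, endoderm, Schwann and neural crest) were read beside the results. The labels' replicate numbers were not used to pair libraries. Alternatives were other pseudocounts, filters, scalings and priors, each experiment alone, a replicate block, and leaving out each library.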

Additional observations from a re-analysis of the deposited data

How the results depend on the processing

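Of 247 recomputed differences of single members under alternatives other than leaving out a library, 240 kept direction and side of the threshold, and of 140 with 1 library left out, 126 did. The count of members that passed in shNr2f1as against control, 1, became 0 with a pseudocount of 0.1, with every entry above 0 and with the experiment modelled alone, and ranged from 0 to 3 with 1 library left out. In shSox21os against control the count of 0 became 1 (Pou3f2) with every entry above 0, and ranged from 0 to 1 with a control left out. In the comparison of cultures the count of 5 became 2 with a filter of 5 FPKM, which leaves only Pou3f1, Pou3f3 and XLOC_000124 in the test. In shPou3f3os against control, the lncRNA turned to 0.00076 after rescaling to the same total, and with 1 library left out it ranged from -0.57 to 0.49; Pou3f1 ranged from -0.38 to 0.61, Pou3f2 from -0.53 to 0.089 and Pou3f4 from -0.35 to 0.0036. Pou5f1 ranged from -2.59 without control 1 to 0.073 without control 2. Pou3f1 in shEVX1 against control ranged from -0.047 to 0.028. The causes were not tested.

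Same-numbered deviations correlated at -0.02 between shPou3f3os and control and -0.05 between shPou3f3os and shNr2f1as. They correlated at 0.30 between shNr2f1as and control and 0.35 between shFendrr and control. Libraries of the same number thus shared deviations in some pairs of groups and not in others, and the labels do not state a pairing. With a replicate block, no count of members changed, Fabp7 in shPou3f3os against control passed (adjusted p = 0.0435), and entries passing numbered 813 instead of 346 for shPou3f3os, 331 instead of 101 for shNr2f1as, and 3 instead of 1 for shPou3f3os against the other knockdowns. With the experiment modelled alone, 0 entries passed in each knockdown comparison except shSox21os, where 7 did instead of 10. With every entry above 0, 161 entries passed for shPou3f3os, 47 for shNr2f1as, 216 for shSox21os and 87 instead of 22 for shFendrr; with 1 library left out the range was 0 to 1240 for shPou3f3os, 43 to 391 for shNr2f1as, 29 to 186 for shSox21os and 2 to 231 for shFendrr. For shEvx1as, shEVX1 and shPou3f3os against the other knockdowns, the count of 1 became 213, 136 and 130 with every entry above 0 and became 2 to 4, 0 and 1 to 3 with 1 library left out. For shEvx1as and shEVX1 it became 0 with a pseudocount of 0.1 and with a filter of 5 FPKM, and for shEvx1as 2 with a trendless prior. The trendless prior gave 54 entries for shNr2f1as; for shFendrr, a pseudocount of 0.1 gave 1 and a filter of 5 FPKM 6. Neither rescaling moved the median of all entries by over 0.1.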
